A study of Mus musculus with 6 samples.

Results

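The 38 genes described here encode the vesicle coats, p24 proteins and cargo receptors that move proteins between the endoplasmic reticulum (ER) and the Golgi. They were taken from the 55367 gene symbols of each count file by name, as 13 COPII genes, 7 COPI genes, 11 p24 (Tmed) genes and 7 cargo and KDEL receptor genes, and all 38 were in the files. The measurements were made in 6 RNA-seq libraries, all of 1 group. Each held 300 GFP-positive cells, labelled acinar, sorted from the pancreas of untreated mice of the genotype Pdx1-Cre; Klf5-mCherry-CreERT2. In this genotype the Pdx1 promoter drives Cre, and the other allele joins Klf5 to mCherry and a tamoxifen-inducible Cre. The genotype label names no GFP reporter, and the labels give no age and do not say whether the libraries came from separate animals. P-values therefore measure only the spread between these libraries.

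Acinar cells make and store digestive enzymes, and nearly all of that protein passes through the ER and Golgi. COPII coats form vesicles that leave the ER: the GTPase SAR1, loaded by PREB on sites organised by SEC16, recruits the SEC23 and SEC24 inner coat, in which SEC24 binds cargo, and SEC13 and SEC31 form the outer cage. COPI coats return escaped ER proteins and cycling receptors from the Golgi. The p24 proteins are small transmembrane proteins that bind both coats and act in alpha, beta, gamma and delta subfamilies, while LMAN1 with its partner MCFD2, LMAN2 and SURF4 pick up soluble cargo and the KDEL receptors return chaperones to the ER.

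Total counts ran from 4670819 to 7072270 per library. The library names carry 1 number for replicates 1 to 3 (set A) and another for replicates 4 to 6 (set B); the labels do not explain it, and the sets were treated as a possible batch. Ribosomal RNA took 38.1 to 46.8% of counts in set A and 59.9 to 60.9% in set B, and the listed digestive enzyme genes took 39.6 to 49.0% and 13.0 to 21.8%. A background of reads over gene bodies was estimated from olfactory and vomeronasal receptor genes. It was 26.6 to 39.1 counts per Mb in set A, and 52.8, 327 and 111 in replicates 4, 5 and 6, so replicate 5 stood apart. All 8 acinar markers, among them the enzyme genes Ctrb1 and Prss2 and the transcription factor genes Ptf1a and Rbpjl, had a mean of at least 10 TPM. The insulin genes were also high in 2 libraries, with Ins2 at 796 TPM in replicate 4 and 1324 TPM in replicate 6 against 5.49 to 21.0 TPM in the others.

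As a group the transport genes were well expressed. Levels are given as TPM (counts per kb of exon, scaled to the same total over all genes in each library, ribosomal RNA included), with the mean ± SD over the 6 libraries. Of the 38 genes, 33 had a mean of at least 1 TPM, or 86.8%, against 32.2% of 21922 protein-coding genes. A mean of at least 10 TPM was reached by 10 genes, or 26.3%, against 3.01% of protein-coding genes. The median was 4.48 TPM against 0.491 TPM over protein-coding genes. By role, the median was 10.4 TPM for the receptors, 5.52 TPM for p24, 3.95 TPM for COPI and 2.68 TPM for COPII. The 38 genes together took 0.103% of counts in replicate 1 (exact 95% interval 0.101 to 0.106, counting error only) and 0.0556% in replicate 5 (0.0535 to 0.0578). In every library 25 of the 38 genes exceeded 3 times the background expected over their span, against 2697 of 21922 protein-coding genes. In all libraries other than replicate 5, 35 of the 38 did so. Background made up over 20% of the counts of 3 genes, at 52.2% for Sec16b, 35.6% for Sec23a and 34.4% for Tmed8.

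**Figure D1:**
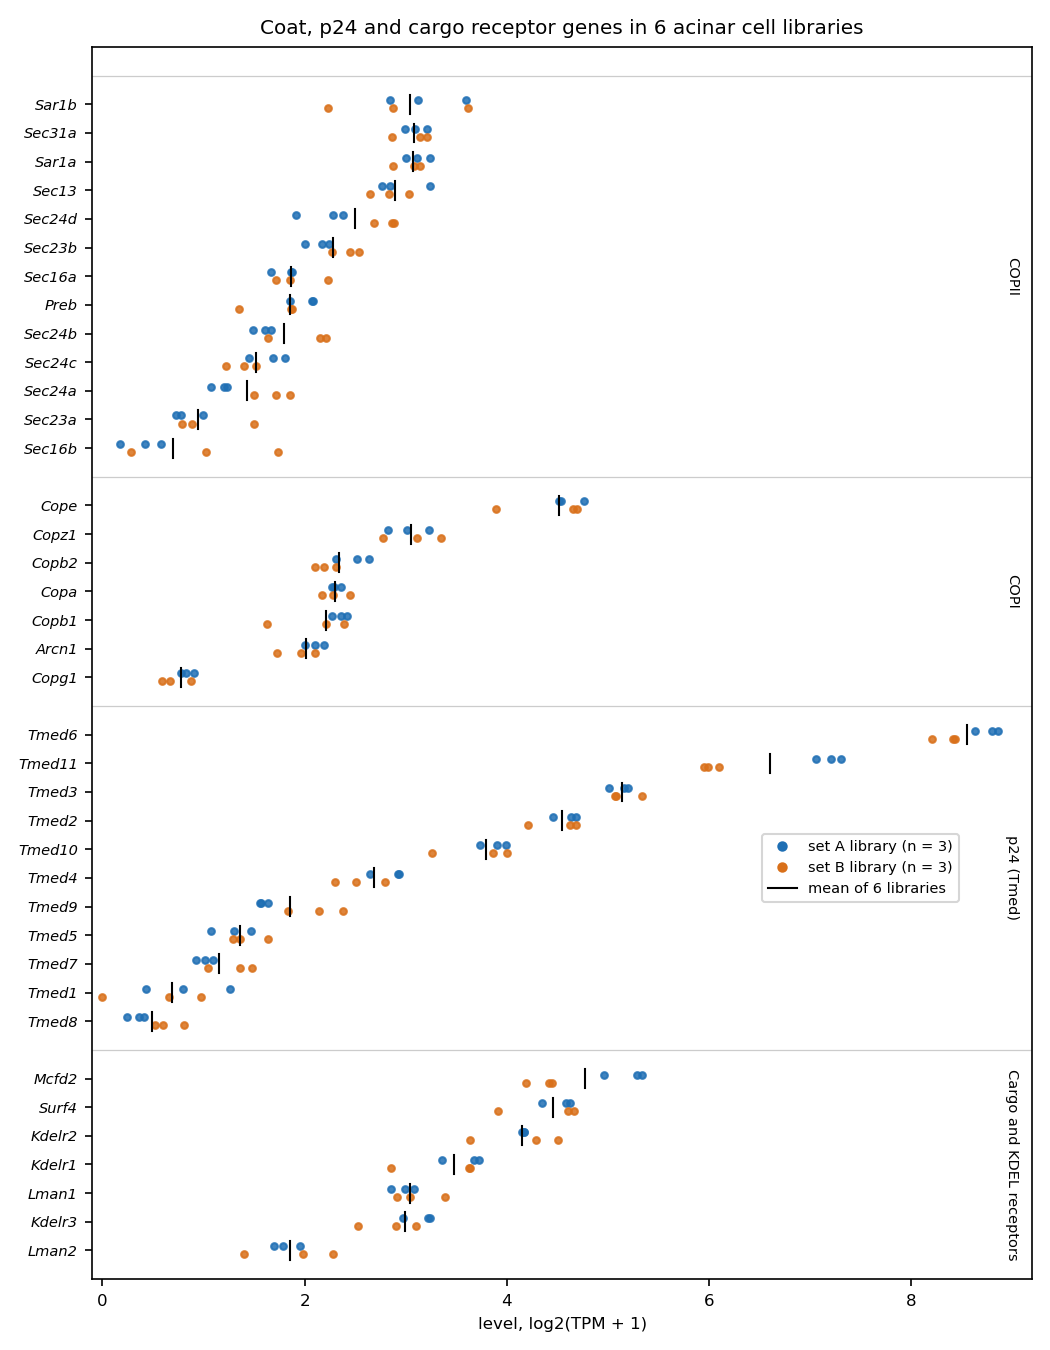
Level of each of the 38 genes, grouped by role, as log2(TPM + 1) on the x axis. Each point is a library, coloured by set (3 libraries each), and the vertical line is the mean of 6 libraries. Tmed6 and Tmed11 lie to the right of all other genes, and both have set A above set B with no overlap.

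The p24 genes were dominated by Tmed6, a gamma subfamily member. Tmed6 was at 447, 464, 396, 341, 295 and 345 TPM in replicates 1 to 6, a mean of 381 ± 65.8 TPM that placed it at rank 38 among protein-coding genes. The next was Tmed11, of the alpha subfamily, at 147, 158, 133, 67.7, 62.9 and 61.2 TPM, a mean of 105 ± 45.7 TPM and rank 95. For both genes every set A library was above every set B library. Their exon lengths are short, at 871 bp for Tmed6 and 763 bp for Tmed11, and 23.2% of the Tmed11 exon bases lie in Vmn2r8. Tmed6 was the highest of the 38 genes under each of the 3 other lengths tried, whereas Tmed11 was second by exon length and 7th by whole gene span.

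The other p24 genes were far lower. Tmed3, another gamma member, was at 34.5 ± 2.97 TPM and was among the steadiest of the 38 genes, with 31.3 to 39.6 TPM over the libraries. Tmed2, the beta subfamily member, was at 22.6 ± 2.83 TPM, and Tmed10, the delta member, at 13.1 ± 2.42 TPM. Both are core partners of the p24 complexes. The alpha members Tmed4 and Tmed9 were at 5.52 ± 1.09 and 2.702 ± 0.923 TPM. The gamma members Tmed5, Tmed7 and Tmed1 were at 1.58 ± 0.337, 1.24 ± 0.351 and 0.673 ± 0.484 TPM, and Tmed8 was at 0.418 ± 0.202 TPM. Tmed1 had 0 to 7 counts per library; the 0 in replicate 5 allows up to 0.642 CPM (counts divided by the library's total count and rescaled). The gamma members thus spanned the range from the highest gene of the 38 to the second lowest. Several of these p24 levels depend on the length. By principal transcript length Tmed10 was at 45.7, Tmed7 at 7.30, Tmed9 at 5.86 and Tmed4 at 5.36 TPM.

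Within the p24 family, Tmed6 supplied 65.6 ± 0.430% of the summed TPM in set A (SD, n = 3) and 69.1 ± 1.21% in set B (SD, n = 3). Tmed11 supplied 22.0 ± 0.367% in set A and 13.6 ± 1.11% in set B. For both genes the sets did not overlap, with Tmed6 higher and Tmed11 lower in set B. The shares of Tmed2, Tmed3, Tmed5, Tmed7, Tmed8 and Tmed9 were likewise higher in set B with no overlap. Those of Tmed1, Tmed4 and Tmed10 overlapped. Shares within a family sum to a fixed total, so they do not move independently. Of the TPM of all 38 genes, Tmed6 alone supplied 50.3 ± 0.623% (SD, n = 6), between 49.7 and 51.0% in every library. These shares are by exon length and depend on it. By principal transcript length the mean of Tmed6 was 340 TPM beside a sum of 864 TPM over the 38 genes. By whole gene span the mean of Tmed11 was 7.05 TPM beside a p24 sum of 172 TPM.

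**Figure D2:**
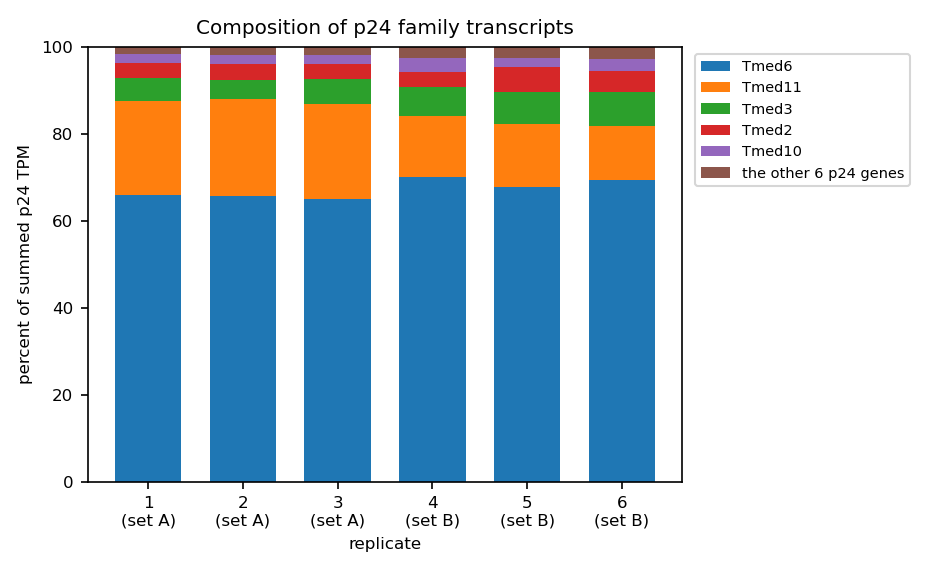
Composition of p24 transcripts in each library, by exon length. Stacked bars give the percent of summed p24 TPM supplied by each gene, for replicates 1 to 3 (set A) and 4 to 6 (set B). Tmed6 forms 65.1 to 70.1% of every bar, and the Tmed11 segment is smaller in set B, at 12.3 to 14.4% against 21.7 to 22.4% in set A.

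Among the cargo receptors, Mcfd2 stood highest. Mcfd2 was at 39.4, 38.1, 30.2, 20.9, 17.3 and 20.5 TPM in replicates 1 to 6, with every set A library above every set B library. Lman1, whose protein binds MCFD2 to carry glycoproteins out of the ER, was at 6.95, 7.47, 6.26, 7.23, 6.55 and 9.52 TPM, with the sets overlapping. Surf4, whose protein exports many soluble cargoes, was at 21.3 ± 3.98 TPM. Lman2, which encodes a lectin of the early secretory path, was lowest at 2.67 ± 0.746 TPM. The KDEL receptor genes followed the order Kdelr2 at 17.1 ± 3.36, Kdelr1 at 10.4 ± 2.28 and Kdelr3 at 7.08 ± 1.37 TPM. They supplied 49.2, 29.7 and 21.1% of the KDEL receptor TPM. Of the Kdelr1 exon bases 42.8% lie in other genes.

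COPII genes sat within a narrower range, from 0.755 to 7.71 TPM. The GTPase genes Sar1b and Sar1a were at 7.71 ± 2.98 and 7.47 ± 0.715 TPM. Sar1b was the more variable, at 3.71 to 11.3 TPM from 10 to 48 counts, and Sar1a ran from 6.35 to 8.44 TPM. The outer cage genes Sec31a and Sec13 were at 7.52 ± 0.780 and 6.50 ± 1.14 TPM. In the inner coat, Sec23b was at 3.88 ± 0.651 and Sec23a at 0.963 ± 0.442 TPM, so by exon length Sec23b supplied 80.7 ± 4.84% of SEC23 transcripts. Of the Sec23a exon bases 44.1% lie in another gene, and the share depends on the length. Over exon bases outside other genes Sec23b was at 3.31 and Sec23a at 1.46 TPM, and by principal transcript length at 7.88 and 1.02 TPM. Sec24d led the cargo-binding SEC24 genes with 4.83 ± 1.46 TPM and 43.2 ± 4.24% of their sum, ahead of Sec24b at 23.1 ± 4.60%, Sec24c at 18.1 ± 6.35% and Sec24a at 15.6 ± 2.52%. Sec24c supplied less in set B, at 12.4 ± 1.82% against 23.8 ± 0.842% in set A, and the sets did not overlap. The shares of Sec24a (17.3% against 14.0%) and Sec24d (46.6% against 39.8%) were higher in set B with no overlap. That of Sec24b overlapped. These shares sum to a fixed total, so they do not move independently. Of the TPM of all the transport genes, Sec24c supplied 0.246% in set B and 0.252% in set A, with overlap. Sec24a, Sec24b and Sec24d supplied more of that TPM in set B with no overlap. Expected background, higher in set B, made up 4.80% of the Sec24c counts and 9.35 to 15.3% of those of the other SEC24 genes. Its part in the SEC24 shares was not tested. Sec16a, the exit-site scaffold gene, was at 2.68 ± 0.538 TPM, and Sec16b was at 0.125, 0.335, 0.493, 0.218, 2.33 and 1.03 TPM. Sec16b was highest in replicates 5 and 6, where the background was also highest; the part of background in this was not tested. Preb, which encodes the SAR1 exchange factor, was at 2.66 ± 0.611 TPM, and 58.8% of its exon bases lie in other genes, as do 55.6% of those of Sec24c, so both levels are uncertain.

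COPI subunits bind in equal numbers in the coatomer, yet their transcripts differed. Cope, for the epsilon subunit, was at 26.3, 22.0, 22.3, 24.9, 13.9 and 24.2 TPM in replicates 1 to 6, lowest in replicate 5. Copz1 (zeta) was at 7.38 ± 1.31 TPM. The remaining large subunits lay close together, with Copb2 (beta prime) at 4.12 ± 0.727, Copa (alpha) at 3.95 ± 0.317, Copb1 (beta) at 3.72 ± 0.841 and Arcn1 (delta) at 3.06 ± 0.440 TPM. Copg1 (gamma 1) was lowest at 0.717 ± 0.143 TPM. The gamma and zeta subunits each have a second gene outside the 38, and both had higher means: Copg2 was at 2.23 ± 1.09 TPM and Copz2 at 23.7 ± 4.52 TPM. Background was expected to supply 40.5% of the Copg2 counts, and its mean was 1.15 TPM with background subtracted.

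Levels were compared within libraries for 22 pairs of paralogs or partners, as the difference of log2(TPM + 1), and tested by flipping signs over all 64 patterns (an exact test, two-sided). With 6 libraries the smallest exact p is 0.03125, and after Benjamini-Hochberg adjustment over the 22 pairs it became 0.043, which 16 pairs reached with the same sign in 6 of 6 libraries. In 11 of these the direction and the call also held under 3 other lengths and with the background subtracted. Leaving ribosomal RNA and enzyme genes out of the total scales both genes of a pair alike within a library. The directions and calls of the 16 pairs were therefore kept there by construction. Differences are first minus second, ± SD over 6 libraries.

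In the p24 family, Tmed6 exceeded Tmed3 by 3.42 ± 0.29, or 11.1-fold in mean TPM. Tmed7 was below Tmed3 by a difference of -3.99 ± 0.23, and Tmed9 was below Tmed11 by one of -4.75 ± 0.95. The last difference was -5.68 to -5.51 in set A and -4.16 to -3.72 in set B. The Tmed1 to Tmed5 difference of -0.67 ± 0.43 also passed, on few counts, but not by span (-0.12, adjusted exact p = 0.43). Tmed10 was below Tmed2 by exon length (-0.76 ± 0.39) but above it by the length of the principal transcript (0.86, adjusted exact p = 0.043), so the order of this pair depends on the length.

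Among the coat genes, Sec23a was below Sec23b (-1.33 ± 0.21) and Sec24a below Sec24d (-1.07 ± 0.13). Copa was below Cope (-2.21 ± 0.26) and Copz1 below Copz2 (-1.55 ± 0.34). Sec24c was below Sec24d (-0.99 ± 0.49) and Copg1 below Copg2 (-0.86 ± 0.46), but by whole gene span both reversed, to 0.36 and 0.39, each at an adjusted exact p of 0.036. Over exon bases outside other genes the Sec24c to Sec24d difference shrank to -0.13 (adjusted exact p = 0.62). The Copg1 to Copg2 difference was -0.33 with background subtracted (adjusted exact p = 0.14) and -0.35 by principal length (adjusted exact p = 0.11). The SAR1 pair did not differ beyond its spread by exon length, at 0.03 ± 0.49 (exact p = 0.875), but by span Sar1a was above Sar1b by 1.46 (adjusted exact p = 0.036). Sec31a and Sec13 differed by 0.19 ± 0.23 (exact p = 0.125, adjusted 0.14) and Copb1 and Copb2 by -0.13 ± 0.26 (exact p = 0.3125, adjusted 0.33). For Sec31a and Sec13 the span gave -0.38 (adjusted exact p = 0.036). For Copb1 and Copb2 the difference passed by span, at -0.52 (adjusted exact p = 0.036), and by principal length, at -0.42 (adjusted exact p = 0.043). The pairs Sec24a and Sec24b, Sec16a and Sec16b, and Tmed9 and Tmed4 each had 5 of 6 libraries on 1 side and missed the threshold at an adjusted exact p of 0.072. Sec16a passed above Sec16b with background subtracted (1.42, adjusted exact p = 0.043) and by span (0.89, adjusted exact p = 0.036), and Tmed9 passed below Tmed4 by span (-1.66, adjusted exact p = 0.036).

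Among the receptors, Lman1 was below Mcfd2 by a difference of -1.73 ± 0.56, which was -2.35 to -2.10 in set A and -1.41 to -1.03 in set B. Lman1 was above Lman2 (1.20 ± 0.20) and below Surf4, which exceeded it by 1.41 ± 0.25. Kdelr2 was above Kdelr3 (1.16 ± 0.49) and above Kdelr1, whose difference from it was -0.68 ± 0.18 by exon length, 0.023 by span and 0.071 over exon bases outside other genes. The order of Kdelr1 and Kdelr2 thus depends on the length used.

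**Figure D3:**
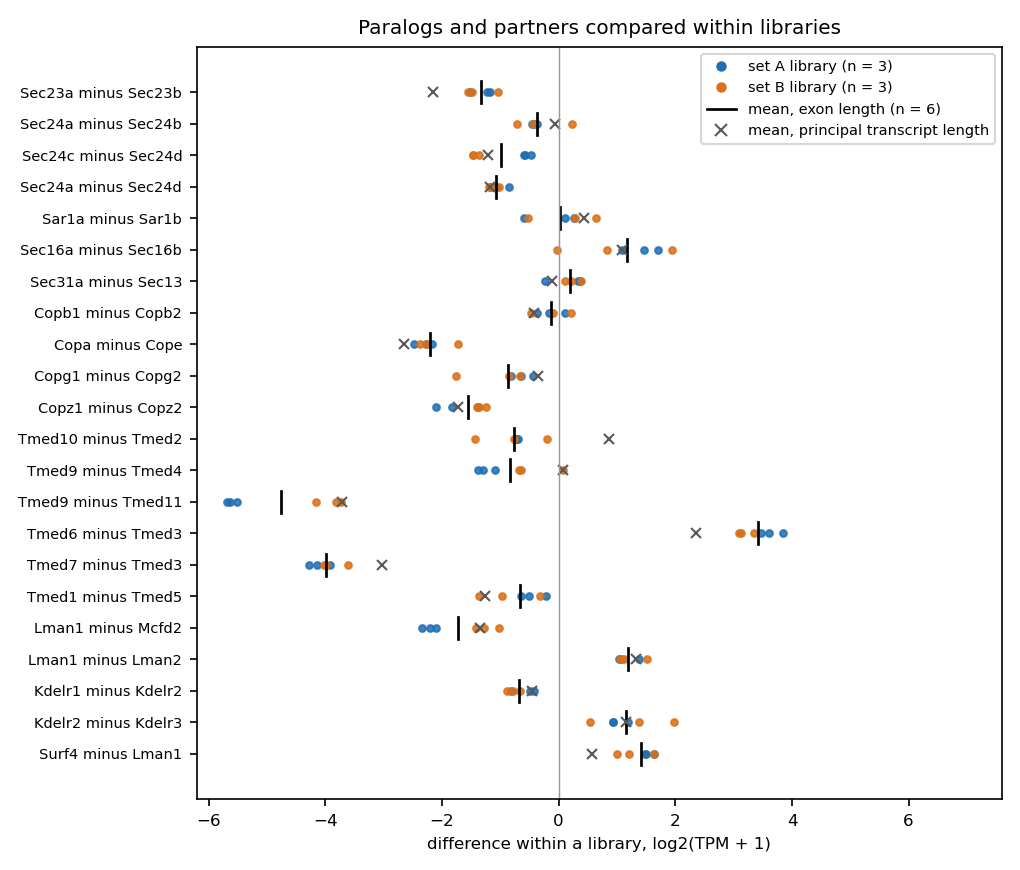
Difference of log2(TPM + 1) between the 2 genes of each of 22 pairs, within each library (points, coloured by set, 3 libraries each), with the mean of 6 libraries by exon length (line) and by principal transcript length (cross). The Tmed9 to Tmed11 pair lies farthest from 0, at -5.68 to -3.72, and the cross of the Tmed10 to Tmed2 pair lies on the other side of 0 from its points.

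Of 65 other genes of the early secretory pathway in the files, 50 had a mean of at least 1 TPM, or 76.9%, and 12 a mean of at least 10 TPM, or 18.5%. Their median was 3.90 TPM and their highest level 42.0 TPM. At the exit sites, Tfg and Mia3 (TANGO1), which organise them, were at 8.95 ± 1.39 and 8.73 ± 1.11 TPM and Mia2 at 4.55 ± 0.598 TPM. Of the Arf cycle that recruits COPI, Arf1 was at 24.7 ± 4.91, Arf4 at 20.5 ± 3.64 and the GTPase-activating Arfgap3 at 14.8 ± 2.42 TPM. Of the Rab and tether genes Rab2a, Gorasp2 and Rab1a were highest, at 23.4 ± 3.34, 17.3 ± 2.18 and 16.8 ± 1.56 TPM. The SNARE genes Bet1, Sec22b and Use1, for fusion between ER and Golgi, were at 6.59, 6.22 and 5.25 TPM. Of the other escorts, Rer1, Bcap31 and Ergic3 were at 14.2, 12.2 and 10.8 TPM. Arf5 and Gorasp1 had 0 counts and their exons lie wholly inside other genes in the annotation, so no absence is read from them. Among regulators of secretory genes, Xbp1 was at 42.0 ± 14.6 TPM, with 52.0 to 58.2 TPM in set A and 22.2 to 34.3 in set B. Bhlha15 (Mist1) was at 32.0 ± 6.50 TPM, while Atf6, Creb3l1 and Creb3l2 were at 5.66, 5.31 and 4.47 TPM.

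XBP1 and ATF6, regulators of the ER stress response, act through short promoter elements, so promoter windows were searched on both strands for the elements known from ER stress genes, and for a pair of E-box forms of the kind that acinar transcription factors bind. RefSeq windows of 250 bases before to 50 after each start (build GRCm38.p6) were on hand for 32 of the 38 genes; Arcn1, Tmed2, Tmed7, Tmed11, Lman1 and Kdelr2 had no entry. The unfolded protein response element TGACGTGG was in 6 of the 32, or 18.8%, against 7.14% of 56 other pathway genes, 1.14% of 5616 protein-coding genes at 1 TPM or more and 0.714% of all 27025 genes with a window. The shorter sequence CCACGT, whose reverse complement lies inside that element so that every match of the longer is one of the shorter, was in 17 of 32, or 53.1%, against 23.2, 13.8 and 9.40%. By role it was in 8 of 13 COPII, 4 of 6 COPI, 3 of 8 p24 and 2 of 5 receptor genes with a window. The 2 ER stress response elements, ERSE and ERSE-II, were in none of the 32 windows. They were also rare in all genes with a window, at 0.137 and 0.0444%. Their absence from 32 windows therefore does not set these genes apart. The cyclic AMP element TGACGTCA was in 1 (Cope), or 3.1% against 2.03% of all genes. The E-box CATATG was in 1 (Sec31a), or 3.1% against 4.48%, and the E-box CAGCTG in 4, or 12.5% against 18.3%.

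The 30 bases around each TGACGTGG match are shown, read 5′ to 3′ on the gene's own strand with the match in capitals. They show that the element lies near the start of an inner-coat, scaffold, coatomer or KDEL receptor gene, in both orientations (CCACGTCA is its reverse complement).
Sec24d, chr3:123267459-123267488, plus strand: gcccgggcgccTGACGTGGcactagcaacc
Sec23a, chr12:59011993-59012022, minus strand: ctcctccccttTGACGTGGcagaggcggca
Sec16b, chr1:157506741-157506770, plus strand: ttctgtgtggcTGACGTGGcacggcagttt
Copb1, chr7:114254690-114254719, minus strand: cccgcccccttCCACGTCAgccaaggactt
Copb2, chr9:98563713-98563742, plus strand: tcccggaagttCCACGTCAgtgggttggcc
Kdelr3, chr15:79516367-79516396, plus strand: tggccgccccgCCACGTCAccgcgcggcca
All 6 matches fall between 44 bases before the start and 14 bases after it. The windows of Sec24d, Sec23a, Sec16b, Copb1 and Copb2 touch an annotated exon of the same gene, while that of Kdelr3 lies in no exon.

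Mcfd2 carries the shorter match in each orientation and Tmed10 carries it as ACGTGG, while Tmed6, the most abundant gene, holds neither sequence in its 300-base window. For contrast the Mcfd2 match nearer the start, the Tmed10 match and the 60 bases just before the Tmed6 start are given.
Mcfd2, chr17:87266002-87266031, minus strand: gccacaggggacACGTGGatccactggatc
Tmed10, chr12:85374710-85374739, minus strand: cagaggcgcgtcACGTGGgtgctcccggtt
Tmed6, chr8:107065645-107065704, minus strand: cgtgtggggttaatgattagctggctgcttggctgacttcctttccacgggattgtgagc
Levels with and without the match overlapped, and their difference was not tested. The 17 genes with CCACGT had a median of 4.83 TPM (0.717 to 34.5) and the 15 without it 3.88 TPM (0.418 to 381). A match is a description of letters in these windows and not a measure of binding.

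**Figure D4:**
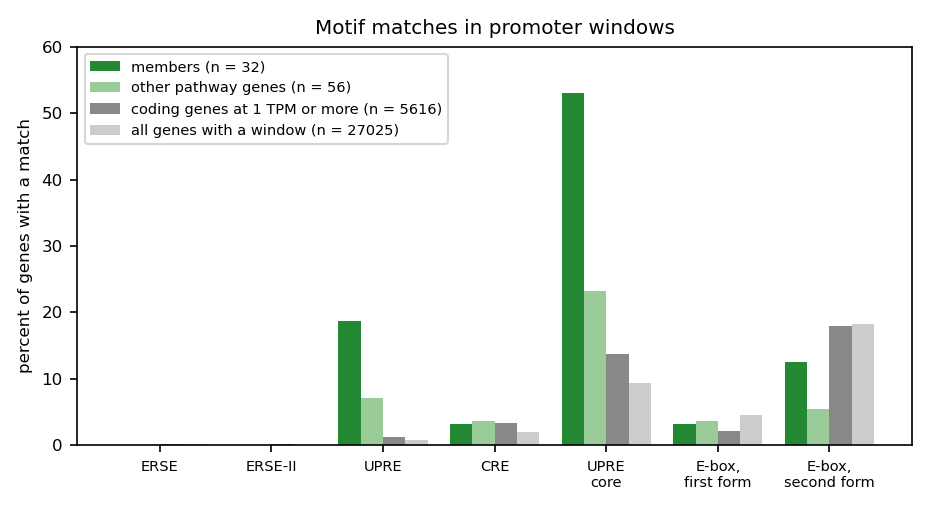
Percent of genes with each motif in the 300-base promoter window, for the 32 transport genes with a window, 56 other pathway genes, 5616 protein-coding genes at 1 TPM or more and all 27025 genes with a window. The UPRE bars stand for TGACGTGG and the UPRE core bars for CCACGT, which reaches 53.1% of the transport genes; the first E-box form is CATATG and the second CAGCTG.

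Between the library sets, Tmed11, Mcfd2 and Tmed6 had the 3 lowest differences of set B from set A. The summed TPM of all 21922 protein-coding genes was 652470 to 734262 in set A and 393829 to 477111 in set B, with no overlap. The summed TPM of the 38 genes was 797 to 910 in set A and 579 to 695 in set B. Without those 3 genes, which were chosen for this after their values were seen, it was 238 to 253 and 203 to 268, which overlap. By gene span the sets did not overlap even so (103 to 128 against 62.1 to 86.4). With ribosomal RNA and enzyme genes left out of the total they did not either (2346 to 2732 against 895 to 2016). On the remaining scales (background subtracted, principal transcript length, exon bases outside other genes) they overlapped. Summed COPII levels overlapped between the sets (47.4 to 51.5 and 46.6 to 58.0 TPM). So did COPI levels (45.3 to 49.4 and 31.6 to 48.8 TPM). Receptor levels (95.6 to 108 and 64.8 to 95.2 TPM) and p24 levels (609 to 706 and 436 to 497 TPM) did not. The sum over all protein-coding genes also parted the sets in this direction. By principal transcript length the receptor levels overlapped (104.53 to 117.6 and 72.2 to 104.55 TPM). For the coats the overlap depended on the scale. They overlapped with background subtracted, by principal transcript length and over exon bases outside other genes, but not on the scales that follow. By span COPII summed to 16.0 to 20.9 against 9.93 to 13.7 and COPI to 20.7 to 27.0 against 10.2 to 17.5. Without ribosomal RNA and enzyme genes in the total, COPII summed to 465 to 556 against 205 to 458 and COPI to 448 to 533 against 139 to 385. The sets are no study groups, and in sorted bulk samples fewer cells of a type and less RNA per cell cannot be told apart.

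Over all genes, edgeR's quasi-likelihood test with Benjamini-Hochberg adjustment called 0.0115% of 8723 genes higher in set B and 0% lower, and 25.9% had an unadjusted p under 0.05. Of the 37 transport genes tested (Tmed1 was below the filter), 0 were called by edgeR and 9 had an unadjusted p under 0.05. DESeq2 called 4.37% of 11876 genes higher and 1.73% lower, and called 3 of the transport genes lower. In CPM, here counts scaled to edgeR's normalised library size, 18 of the 37 genes were lower in set B with no overlap, beside 17.2% of all genes tested, and 1, Tmed8, was higher, beside 15.5%. Their median difference was -0.54 (log2, set B minus set A), beside a median of -0.004 over all genes tested. It was -0.29 without replicate 5 and -0.80 without replicate 4, the ends of its range when 1 library was left out. A comparison added after the values were seen took the 2495 protein-coding genes tested by edgeR that exceeded 3 times the background in every library. Of these, 34.5% were lower with no overlap, 3.05% were higher with no overlap, and the median was -0.40. Of the 25 transport genes of that kind 15 were lower with no overlap, all 25 were below 0, beside 78.7% of the 2495, and their median was -0.59.

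Tmed11 was at 76.4, 75.8, 65.1, 27.0, 17.1 and 23.4 CPM in replicates 1 to 6. The fitted difference was -1.68 ± 0.27 (SE), with an edgeR adjusted p of 0.087, and with DESeq2 it was -1.82 (adjusted p = 1.4e-05). Mcfd2 was at 75.9, 67.7, 54.8, 30.9, 17.4 and 29.0 CPM, with -1.36 ± 0.30 (edgeR adjusted p = 0.087) and -1.49 with DESeq2 (adjusted p = 0.0018). Both were lower in every set B library than in any set A library. Tmed6, at 221 to 265 CPM in set A and 91.5 to 155 in set B, had -0.90 ± 0.29 (edgeR adjusted p = 0.10) and -1.03 with DESeq2 (adjusted p = 0.021). Over 10 alternative fits the adjusted p ran from 1.4e-05 to 0.30 for Tmed11, from 0.00066 to 0.30 for Mcfd2 and from 0.013 to 0.32 for Tmed6. All 3 calls depended on the tool, the filter or single libraries. With no filter on low counts edgeR called Tmed11 (adjusted p = 0.0033) and Mcfd2 (adjusted p = 0.020) on all 6 libraries. With the filter it called both without replicate 4 or without replicate 5, Tmed6 without replicate 5, and none of the 38 genes without replicate 1, 2, 3 or 6. The next smallest p-values were those of Copb2, at -0.84 ± 0.29 (edgeR adjusted p = 0.11), and Kdelr3, at -0.86 ± 0.31 (edgeR adjusted p = 0.12).

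Of all 8723 genes tested, 4385 had a difference below 0, and 17.2% were lower with no overlap. Among the 2495 tested protein-coding genes over 3 times background, 78.7% were below 0 and 34.5% were lower with no overlap. By role, all 7 COPI genes had differences below 0, from -0.84 to -0.38, and 6 of them did not overlap, Copz1 being the exception. All 7 receptor genes were below 0 and 3 did not overlap; without replicate 5 Lman2 was at 0.047. Among p24 genes 7 of 10 were below 0 and 4 were lower with no overlap. For COPII genes these counts were 9 of 13 and 5. Sec16b (1.25 ± 0.71) and Sec24a (0.37 ± 0.33) had the highest COPII values, and neither was called by edgeR. The scale matters for the small differences. By TPM, Sec24d was at 2.77 to 4.22 in set A and 5.45 to 6.39 in set B, and Sec23b at 3.01 to 3.72 and 3.82 to 4.81, with no overlap, whereas on edgeR's scale the sets overlapped and the differences were 0.26 ± 0.31 and -0.16 ± 0.26. Several library measures moved with the sets: the digestive enzyme genes had a median of -1.34, with 27 of 32 tested lower and not overlapping, and the ribosomal RNA share and the receptor-gene background were both higher in set B.

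Markers of other cell types varied between the sets too. The 7 endocrine markers summed to 8.90 to 39.4 TPM in set A and 37.8 to 2224 TPM in set B, led by Ins1 and Ins2, with Gcg reaching 166 TPM in replicate 6. The 7 ductal markers summed to 69.2 to 102 and 51.0 to 173 TPM. The 4 endothelial markers summed to 0.525 to 1.19 and 0.970 to 10.2 TPM, and the 6 immune markers to 2.62 to 3.35 and 2.33 to 10.8 TPM. The 5 fibroblast markers summed to 1.11 to 13.5 and 1.06 to 8.13 TPM, and the erythroid pair to 0 to 0.744 and 0 to 30.02 TPM. Cd3e had 0 counts in all set A libraries, and Iapp had 0 counts in every library but lies wholly inside another gene. The part of these in the set differences was not tested.

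**Figure D5:**
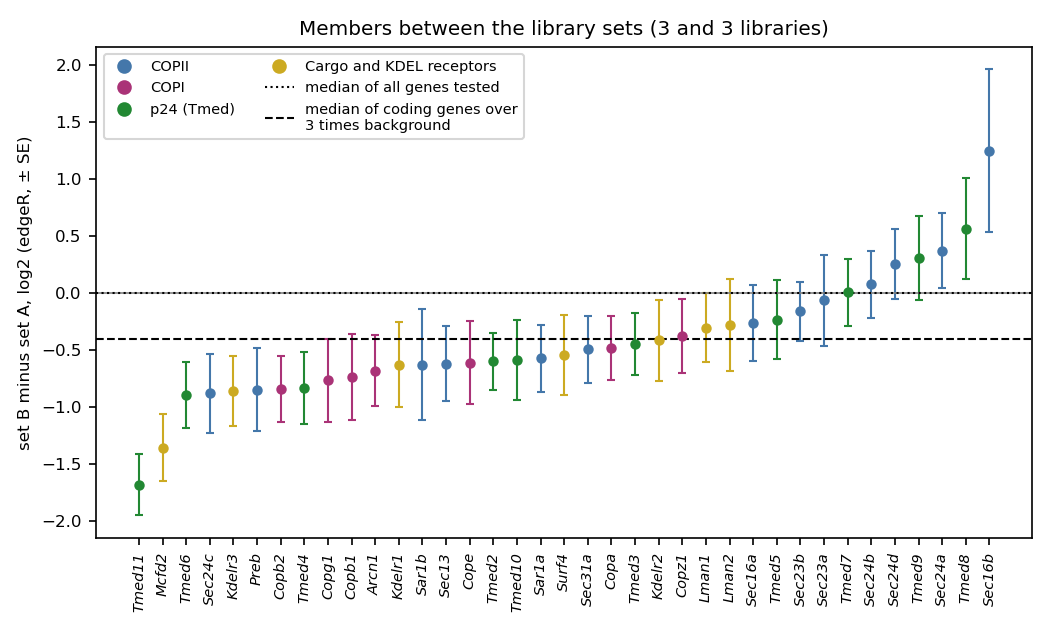
Set B minus set A difference of each of the 37 tested genes (log2, edgeR; bars are ± SE, 3 libraries per set), coloured by role and ordered by size. The dotted line is the median of all genes tested (-0.004) and the dashed line that of protein-coding genes over 3 times background (-0.40); Tmed11 and Mcfd2 lie farthest below it.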

How the data were processed

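RNA was measured in 6 libraries, each from 300 sorted cells, with an adapted form of Smart-seq2 that preamplified for 12 cycles, per the labels' protocols. Per the submitters' processing notes the authors used Trim Galore 0.6.4, FastQC, STAR 2.7.9a, SAMtools and featureCounts on build mm10. The deposited values are raw whole-number counts per gene symbol over whole gene spans, introns included, and the Length column, also deposited by the authors, holds another quantity, the span in bp. Genomic DNA is the molecule named in the labels. The annotation release, strand setting and treatment of reads with several alignments are not given in the sources used here.

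TPM was computed from the counts with GENCODE vM21 exon lengths (GRCm38, 55040 of 55367 symbols), and tests on levels used log2(TPM + 1). Since introns were counted, a gene with long introns has too high a TPM wherever unspliced RNA or DNA was read. Background, in counts per Mb, came from 1765 receptor genes (olfactory and vomeronasal). In each library 3 counts, the upper limit that a count of 0 allows, correspond to 0.424 to 0.642 CPM.

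Pairs were tested with the exact sign-flip test, and the sets with edgeR 4.0.16 (TMM, filterByExpr, quasi-likelihood), with DESeq2 1.42.0 as an alternative, at a threshold of 0.05 after Benjamini-Hochberg adjustment. The other software was matplotlib 3.10.9, scipy 1.17.1, pandas 2.3.3, numpy 2.4.6, Python 3.11.15, limma 3.58.1 and R 4.3.3, and the tests were checked on simulated data. The genes and lists were chosen with earlier results of these data known. All 38 genes were accounted for; the others named are the pair partners Copg2 and Copz2, the 3 highest genes of each pathway list, the regulators, and markers, and between the sets the 5 genes with the smallest p. Named beyond that rule, after their values were seen, were genes with 0 counts, Ins1, Ins2, Gcg, Sec16b, Sec23b, Sec24a and Sec24d. Protein sequences were not analysed here. The alternatives were other lengths, background subtraction, another total, another pseudocount, other fits and leaving out each replicate; the principal transcript length and the exon bases outside other genes were added after the data were seen.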

Additional observations from a re-analysis of the deposited data

Results flagged for a closer look

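Of 44 levels examined (each gene, each role's sum and the other sums), 8 had 1 library set apart from the other 5, by a gap above Dixon's 95% critical value for 6 samples. Chance flags about 1 in 20 groups in this way. Replicate 5, which had the fewest counts and the highest background, was lowest for 5 of them. Preb was at 1.55 TPM there against 2.63 to 3.23 TPM in the others, Copb1 at 2.09 against 3.65 to 4.35 TPM, and Cope at 13.9 against 22.0 to 26.3 TPM. The summed COPI level was 31.6 TPM there against 45.3 to 49.4 TPM, and the summed receptor level was 64.8 against 91.9 to 108 TPM. Sec23a, of whose counts 35.6% were expected as background, was highest in replicate 5, at 1.83 TPM against 0.652 to 0.999 TPM. Sec16a was highest in replicate 4, at 3.69 TPM against 2.18 to 2.66 TPM. Lman1 was highest in replicate 6, at 9.52 TPM against 6.26 to 7.47 TPM.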

How the results depend on the processing

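The number of transport genes at 1 TPM or more was 24 by span, 35 by principal transcript length, 34 over exon bases outside other genes, 33 with background subtracted and 33 to 34 leaving out each library. In the order COPII, COPI, p24 and receptors, the role medians were 0.880, 1.47, 3.35 and 2.58 TPM by span, and 23.0, 32.9, 46.6 and 88.6 TPM with ribosomal RNA and enzyme genes left out of the total. By principal transcript length COPI, p24 and receptors were at 7.65, 7.30 and 12.4 TPM, and over exon bases outside other genes COPII, COPI and receptors were at 3.66, 3.55 and 14.7 TPM. Leaving out each library gave 2.66 to 2.88, 3.85 to 4.04, 5.29 to 5.84 and 10.01 to 11.2 TPM.

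With 5 libraries the smallest exact p is 0.0625, so leaving out any library left 0 to 0 of 22 pairs past the threshold by construction. Signs reversed by span for Sec24a and Sec24b (0.10), Sec24c and Sec24d (0.36), Sec31a and Sec13 (-0.38), Copg1 and Copg2 (0.39) and Kdelr1 and Kdelr2 (0.023). By principal length they reversed for Sec31a and Sec13 (-0.11), Tmed10 and Tmed2 (0.86) and Tmed9 and Tmed4 (0.076), and over exon bases outside other genes for Kdelr1 and Kdelr2 (0.071). The SAR1 pair ran from -0.093 (without replicate 5) to 0.15 (without replicate 2).

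Between the sets, DESeq2 called 519 genes higher and 206 lower in set B, 3 of them transport genes, and edgeR without a filter on low counts called 790 and 203, with 2. Leaving out each library gave 0 to 1656 higher and 0 to 561 lower, with 0 to 6 transport genes lower; 1656, 561 and 6 came without replicate 4, and 366, 369 and 3 without replicate 5. The 6 were Sec24c, Copb2, Copg1, Tmed11, Mcfd2 and Kdelr3. Differences near 0 changed sign: with DESeq2 and with no filter Sec24b gave -0.078 and -0.22, and Tmed7 -0.15 and -0.29. Leaving out each library, Sec24b ran from -0.13 to 0.098, Tmed7 from -0.14 to 0.011, Sec24d from -0.017 to 0.44, Tmed9 from -0.089 to 0.56, Lman2 from -0.63 to 0.047 and Sec23a from -0.34 to 0.13. Apart from what the alternatives fix by construction, the cause was not tested. Libraries could not be paired between conditions because all belong to 1 group. Depth limits Tmed1, Tmed8, Sec16b and Sec23a most, with 27 counts or fewer per library.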
